A study of Mus musculus with 9 samples.

Results

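The genes described are 10 enzymes of glycolysis, chosen by name for their place in the pathway and for the pairs of genes that encode the same step: the hexokinases Hk1 and Hk2, the phosphofructokinase subunits Pfkp and Pfkm, the aldolases Aldoa and Aldoc, the phosphoglycerate kinase Pgk1, the pyruvate kinase Pkm, and the lactate dehydrogenase subunits Ldha and Ldhb. All 10 were found among the 32287 gene IDs of the expression matrix, and all 10 passed the filter on low counts in the comparison of cell classes, in which 12694 genes were tested. Glycolysis turns glucose into pyruvate: hexokinase traps the sugar in the cell, phosphofructokinase commits it to the pathway, aldolase splits it, phosphoglycerate kinase and pyruvate kinase make ATP, and lactate dehydrogenase interconverts pyruvate and lactate. In the brain, Aldoc is the aldolase of astrocytes and Aldoa is found widely, including in neurons. Lactate dehydrogenase is a tetramer of both subunits, of which Ldha is associated with making lactate and Ldhb with using it. Quiescent neural stem cells (NSCs) of the adult brain resemble astrocytes in much of their gene expression and are known for a metabolism that leans on glycolysis and lipids.

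The cells came from male TiCY mice, in which a Tlx (Nr2e1) promoter drives CreERT2 and tamoxifen switches on an eYFP reporter in NSCs and their progeny. The strain names of WT and KO mice also list a Fas allele (Fas tm1Cgn), which all groups thus shared, on a C57BL6 background. KO mice (TiCY-IFNAGRKO) in addition lacked the interferon receptor genes Ifnar1 and Ifngr1. WT young mice were 16 weeks old (tamoxifen at 10 weeks, chase of 6 weeks), WT old mice 80 weeks (tamoxifen at 71 weeks), KO young mice 16 weeks (tamoxifen at 7 weeks) and KO old mice 92 to 105 weeks (tamoxifen at 85 and 98 weeks, which with the chase do not add up to the stated ages). The chase was 9 weeks in the last 3 groups. All groups thus had tamoxifen, and no group was without the reporter. The 2 mice of a group shared 1 droplet reaction, so group and reaction cannot be told apart. Antibody hashtags marked the mouse and the tissue, which was the ventricular-subventricular zone (vSVZ, sorted eYFP+ and GLAST+ cells) or the rest of the path to the olfactory bulb (RoB: striatum, migratory stream and bulb, pooled; sorted eYFP+ cells, and eYFP- cells low in PSANCAM), and sorting left out CD45+, Ter119+ and O4+ cells.

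The 4 libraries held 27096070 to 78028524 UMIs over all barcodes, and 2423 to 6638 cells per library passed the filters, with 5067 to 7437 UMIs in the median cell. From 11 to 18 retained cells per library carried a barcode that another library also held. Over all cells, Ifngr1 stood at 46.9 and 85.4 CPM (UMIs per 1000000 UMIs of the same sum) in the WT libraries and at 2.88 and 4.40 in the KO libraries, and Ifnar1 at 21.2 and 28.6 against 8.08 and 6.56. Cells were clustered without the genes described here, and clusters were named from marker genes, so that the names follow markers and not glycolysis, although other genes of the same cells drew the classes. In the quiescent NSC-like class, limited to vSVZ-tagged cells, 269 to 502 cells per library had the astroglial glutamate transporter gene Slc1a2 at 7431 to 11089 CPM. Over cells of any hashtag, an eYFP UMI was seen in 49.3% of cells in the cluster of this class richest in the reporter. In its other clusters the share was 5.14 to 9.4%, against 90.25 and 91.99% in the TAP-like clusters. Its astroglial markers do not tell stem cells from astrocytes, so steps from this class may also compare cell types. The later stages and the neuron-like class were not limited by hashtag and took cells of any hashtag or none. Steps from the quiescent class may thus also compare tissues. The activated NSC-like class joined a cluster led by S-phase genes such as Mcm5 to one with Egfr among its leading genes, and the transit-amplifying progenitor (TAP)-like class was made of 2 clusters led by mitosis genes such as Top2a. Steps between these classes therefore also follow the cell cycle, and stage and cycle phase cannot be told apart. In the neuron-like clusters 7.97 and 1.92% of cells had an eYFP UMI, against 44.0 to 83.5% in neuroblast-like clusters. Most neuron-like cells were thus not seen to carry the reporter, and their descent from these neuroblasts was not shown. Words such as rose and fell compare classes here, not the same cells over time. The microglia-like class had Csf1r at 2406 to 3098 CPM but P2ry12 at only 15.3 to 23.5, with the stress and immune genes Atf3 and Ccl4 among its leading genes.

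The aldolase pair showed the widest change. Aldoc (chromosome 11, GRCm38 positions 78322968 to 78327781, plus strand) is given, like the genes that follow, with the WT libraries first (young, then old) and the KO libraries after them (young, then old). It stood at 4852, 5004, 5233 and 4850 CPM in quiescent NSC-like cells, at 200, 527, 298 and 709 in activated NSC-like cells, at 14.0, 20.8, 26.9 and 13.3 in TAP-like cells and at 13.4, 15.4, 31.9 and 17.8 in neuroblast-like cells. The quiescent values lay above every value of the later stages, and the TAP-like and neuroblast-like values overlapped. From quiescent to neuroblast-like cells the log2 change was -8.21 ± 0.39 (SE, edgeR quasi-likelihood, adjusted p = 8.33e-19, lower in 4 of 4 libraries). At least 1 Aldoc UMI was seen in 99.4% of 1590 quiescent cells (95% exact interval 98.8 to 99.7%) and in 9.93% of 6342 neuroblast-like cells (9.21 to 10.7%), and with every cell thinned to 1000 UMIs in 96.1% and 2.38%. These intervals pool the cells of the 4 libraries and leave out the spread between libraries and mice. Near-empty barcodes, which hold free RNA, had Aldoc at 871 to 1388 CPM, and 9.42% of 329 microglia-like cells, a type not known for this gene, had an Aldoc UMI at a median depth of 5249 UMIs (neuroblast-like cells: 4967). The share of neuroblast-like cells with a UMI was close to that background.

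Aldoa (chromosome 7, 126795234 to 126800751, minus strand) fell along the same path and was high in neuron-like cells. Its levels were 880, 947, 931 and 927 CPM in quiescent NSC-like cells, 159, 228, 177 and 300 in activated cells, 26.5, 11.6, 28.1 and 15.7 in TAP-like cells, 79.4, 59.3, 78.4 and 63.3 in neuroblast-like cells and 1451, 1512, 1748 and 1578 in neuron-like cells. The ranges of these 5 classes did not overlap, and neuron-like cells stood above quiescent cells. The neuron-like class lay 4.42 ± 0.17 (log2, SE) above the neuroblast-like class (adjusted p = 6.65e-21), while Aldoc changed there by 1.16 ± 0.39 (adjusted p = 0.0111). That Aldoc change rested on the WT young library, where neuron-like cells had 119 CPM against 18.0 to 54.6 in the others. Without that library it was 0.25 and did not pass the test, nor did it without KO old (0.87), and the quiescent marker list summed to 381 CPM in the WT young neuron-like cells against 113 to 200 in the others (its part in the Aldoc value was not tested). In the last 400 bases of the principal Aldoa transcript, 17.6% of 31-base words also occur in 6 other genes, processed copies such as Aldoart1 among them, so Aldoa counts may be split.

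**Figure D1:**
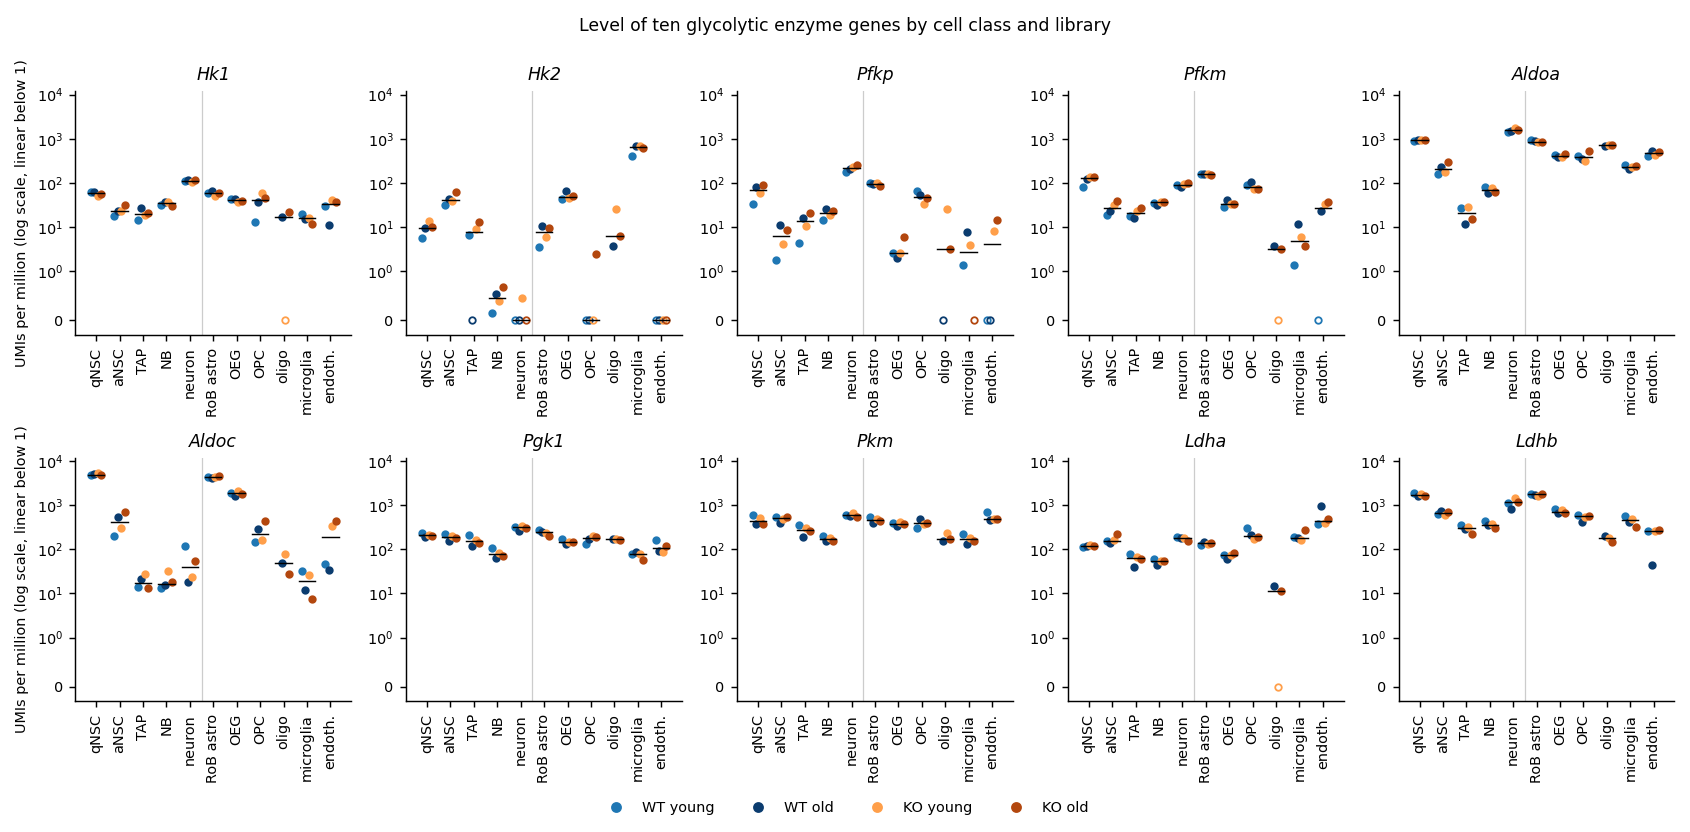
Level of each gene in CPM (vertical axis, logarithmic above 1 and linear below; open circles are 0) in 11 cell classes (horizontal axis), with 1 point per library and a bar at the median of the libraries; qNSC, aNSC and NB are the quiescent NSC-like, activated NSC-like and neuroblast-like classes, and OEG is olfactory ensheathing glia-like. Aldoc drops from 4850 to 5233 in qNSC to between 13.4 and 31.9 in NB, Aldoa stands at 1451 to 1748 in neurons, and Hk2 peaks at 405 to 700 in microglia.

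The sequences before the listed transcription starts are shown for 2 pairs whose shares differed between classes, Aldoc and Aldoa (in neuron-like cells) and Ldha and Ldhb (in endothelial-like cells), and for Hk2, which was high in microglia-like cells. Each is the stretch of 250 bases upstream of 1 RefSeq start (GRCm38.p6), 5′ to 3′ on the gene's strand. Capitals mark, on either strand, ACGTG, the core of the hypoxia response element, and GGGCGG, the GC box. Matches may overlap.
Aldoc, chr11:78322823-78323072, plus strand: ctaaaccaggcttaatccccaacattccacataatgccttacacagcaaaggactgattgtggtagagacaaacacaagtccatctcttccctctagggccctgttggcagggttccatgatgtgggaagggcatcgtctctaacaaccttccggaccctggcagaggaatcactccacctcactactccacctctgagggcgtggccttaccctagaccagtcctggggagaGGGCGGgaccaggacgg
Aldoa, chr7:126799255-126799504, minus strand: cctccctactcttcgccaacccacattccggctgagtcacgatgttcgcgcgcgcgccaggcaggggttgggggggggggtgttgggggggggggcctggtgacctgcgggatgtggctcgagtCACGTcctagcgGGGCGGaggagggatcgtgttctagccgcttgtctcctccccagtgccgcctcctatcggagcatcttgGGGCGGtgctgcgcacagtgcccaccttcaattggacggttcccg
Hk2, chr6:82774455-82774704, minus strand: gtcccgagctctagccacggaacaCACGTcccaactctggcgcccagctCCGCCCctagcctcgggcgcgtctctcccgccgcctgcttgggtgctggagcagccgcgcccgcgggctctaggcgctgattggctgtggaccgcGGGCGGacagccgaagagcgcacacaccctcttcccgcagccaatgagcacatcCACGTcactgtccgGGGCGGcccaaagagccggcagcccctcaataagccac
Ldha, chr7:46845554-46845803, plus strand: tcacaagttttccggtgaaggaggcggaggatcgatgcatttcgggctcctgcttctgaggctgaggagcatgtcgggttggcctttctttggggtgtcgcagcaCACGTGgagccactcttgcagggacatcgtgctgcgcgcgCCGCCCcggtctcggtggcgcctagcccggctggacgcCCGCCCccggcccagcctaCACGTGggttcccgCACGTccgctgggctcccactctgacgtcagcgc
Ldhb, chr6:142507958-142508207, minus strand: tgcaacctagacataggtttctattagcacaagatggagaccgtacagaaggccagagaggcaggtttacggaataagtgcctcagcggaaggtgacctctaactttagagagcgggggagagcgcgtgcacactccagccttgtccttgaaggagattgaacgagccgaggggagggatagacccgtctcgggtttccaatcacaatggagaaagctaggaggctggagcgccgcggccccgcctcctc

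Of these, the Ldha stretch held ACGTG at 3 places and the Hk2 stretch at 2, while the Aldoc and Ldhb stretches held none. The Ldha start shown lies 1327 bases from the start of the principal transcript. The other listed Ldha start lies 49 bases from it, and its stretch held neither motif. Over all 32851 RefSeq starts, 16.6% held ACGTG in this window and 32.7% a GC box. By gene, 6 of the 10 members had ACGTG before at least 1 start, against 18.5% of 27025 gene symbols, and 7 of the 10 had a GC box, against 35.4%. Members have up to 4 listed starts each, and a match describes letters only.

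Along the lineage the genes did not move as a block. From quiescent to activated NSC-like cells, 7 members fell, Hk2 rose and 2 did not pass the test, where 27.6% of all genes tested were called higher and 36.1% lower. The median log2 change was -1.69 over the 10 members and -0.12 over all genes. The median cell of a library held 9657 to 12990 UMIs in activated and 5246 to 7820 in quiescent NSC-like cells. Levels are shares of a sum, so a lower level need not mean fewer UMIs per cell. Relative to total UMIs in place of the edgeR scaling, the median log2 change of all genes moved up by 0.34 (by 0.27 for neuroblast-like against quiescent cells) and the share of calls that were higher went from 43.4% to 60.6%; on that scale Pgk1 no longer passed the test and Ldha did, as higher.

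Hk2 (chromosome 6, 82725025 to 82774454, minus strand), the hexokinase of muscle, tumours and other fast glycolytic cells, was the member that rose. It stood at 5.58, 9.45, 13.8 and 10.1 CPM in quiescent cells and at 31.5, 43.6, 39.2 and 61.0 in activated cells, with no overlap (log2 change 1.69 ± 0.19, adjusted p = 1.84e-09). The quiescent values were no higher than the 9.90 to 23.0 CPM of near-empty barcodes, and the activated values were. Hk1 (chromosome 10, 62268855 to 62379908, minus strand), the general brain hexokinase, went the other way, from 61.3, 61.9, 51.6 and 55.0 CPM to 18.0, 23.8, 23.5 and 31.6 (log2 change -1.62 ± 0.14). Counting at the 3′ end cannot tell the transcript forms of Hk1 apart.

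The phosphofructokinase genes Pfkp and Pfkm both fell at this step, as did Pfkl, the liver-type subunit, which is no member of the set (log2 change -1.37 ± 0.14). Pfkp (chromosome 13, 6579768 to 6648777, minus strand), the platelet-type subunit, went from 34.2, 79.9, 59.7 and 89.5 CPM to 1.82, 10.9, 4.13 and 8.41 (log2 change -4.07 ± 0.24). Pfkm (chromosome 15, 98092589 to 98132451, plus strand), the muscle-type subunit, went from 79.5, 122, 135 and 138 CPM to 19.1, 22.8, 32.1 and 38.4 (log2 change -2.45 ± 0.15). The ranges of Pfkp and Pfkm did not overlap between the classes, and for Pfkp the activated values lay below the 26.3 to 64.4 CPM of near-empty barcodes. The quiescent class was uneven, since its reporter-rich cluster, described below, had Pfkp at 8.82, 11.6, 8.12 and 20.9 CPM, overlapping the activated values. Pfkm stood there at 51.8, 64.8, 72.3 and 64.2 CPM, above the activated values. The part of this unevenness in the changes was not tested.

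The late enzymes moved less. Pgk1 (chromosome X, 106187100 to 106203699, plus strand) changed by -0.53 ± 0.11 (adjusted p = 8.69e-05) with overlapping levels of 192 to 231 and 157 to 217 CPM. Pkm (chromosome 9, 59656368 to 59679375, plus strand), whose M1 and M2 forms cannot be told apart by 3′ counts, stood at 368 to 594 CPM in quiescent and 389 to 538 in activated cells (adjusted p = 0.0534). Ldha (chromosome 7, 46841475 to 46855627, plus strand) had 114, 122, 125 and 118 CPM against 151, 137, 160 and 217, higher in 4 of 4 libraries in CPM, yet with a scaled change of 0.08 ± 0.11 (adjusted p = 0.507). Ldhb (chromosome 6, 142490249 to 142507957, minus strand) fell, from 1854, 1654, 1825 and 1636 CPM to 643, 724, 596 and 686 (log2 change -1.75 ± 0.15, adjusted p = 6.15e-12). Of its last 400 bases, 22.7% of the 31-base words are shared with 1 other gene, Gm5514.

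**Figure D2:**
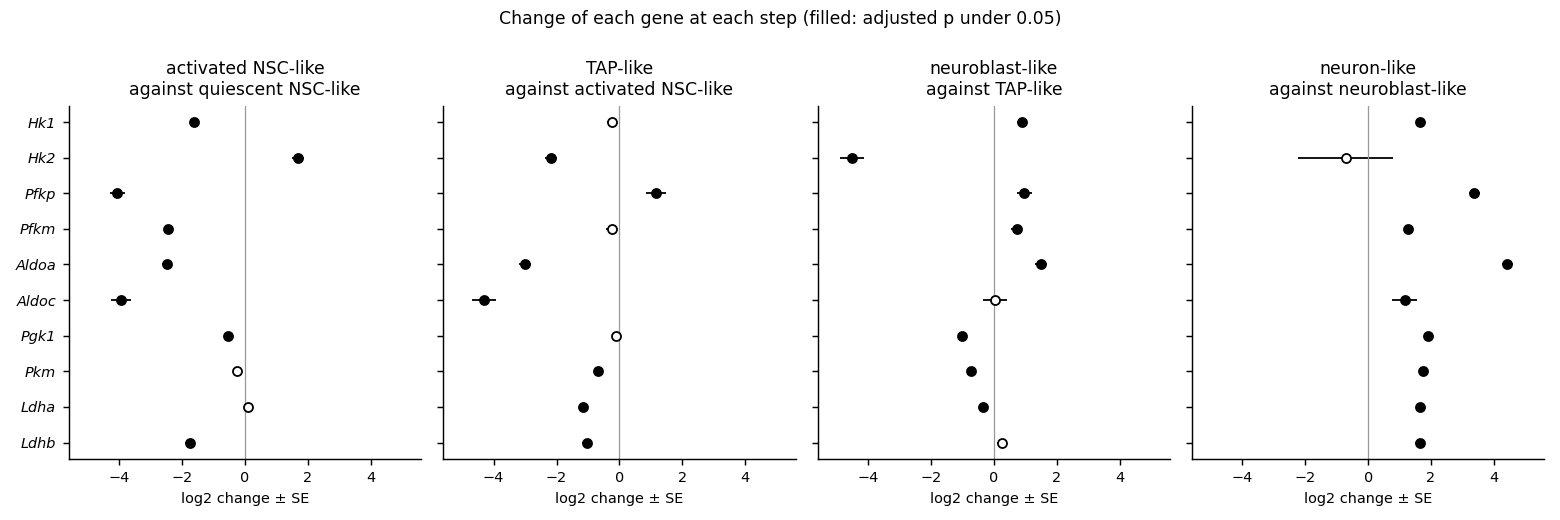
Log2 change of each gene (rows) with its standard error (horizontal axis) in 4 comparisons of classes (panels) from the fit over 4 libraries. Filled points passed adjusted p under 0.05. Hk2 rises by 1.69 in the first panel and falls by 2.17 and 4.51 in the next panels. All genes but Hk2 are higher in neuron-like than in neuroblast-like cells.

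The activated class was uneven. Its Egfr cluster had Aldoc at 621, 891, 707 and 1105 CPM and Aldoa at 299, 318, 333 and 437, whereas the S-phase cluster had Aldoc at 25.5, 19.0, 54.2 and 34.2 and Aldoa at 101, 102, 84.5 and 65.5. Within each library, then, the aldolases were lower in the cluster of cells in S phase. The Egfr cluster made up 35.6% (95% exact interval 31.6 to 39.8%) of activated cells in WT young and 61.0% (49.2 to 72.0%) in WT old. The KO shares were 41.8% (37.0 to 46.7%) for young and 67.3% (59.2 to 74.8%) for old. The higher Aldoc levels of the whole class in both old libraries (527 and 709 against 200 and 298 CPM) moved with these shares; with 1 library per group, no test was made. Hk2 was present in both clusters, at 29.2 to 77.5 CPM in the first and 26.1 to 32.8 in the second.

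From activated NSC-like to TAP-like cells, 6 members fell, Pfkp rose and 3 did not pass the test, where 16.7% of all genes were called higher and 24.1% lower. Hk2 fell to 6.79, 0, 9.04 and 13.3 CPM (log2 change -2.17 ± 0.19), and the 0 in WT old, from 32 cells, allows up to 6.95 CPM. Aldoa changed by -2.99 ± 0.19, Aldoc by -4.31 ± 0.38, Ldha by -1.17 ± 0.12, Ldhb by -1.04 ± 0.15 and Pkm by -0.69 ± 0.12. The rise of Pfkp, to 4.40, 16.2, 10.7 and 20.5 CPM (1.17 ± 0.32, adjusted p = 0.00377), was lost without the KO young library (1.00, adjusted p = 0.0823). For this step the scaling mattered too: relative to total UMIs, the share of calls that were higher was 28.7% in place of 41.0%.

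From TAP-like to neuroblast-like cells, 4 members rose and 4 fell, where 24.7% of all genes were called higher and 25.6% lower. Hk1, Pfkp, Pfkm and Aldoa rose, by 0.88 ± 0.15, 0.96 ± 0.24, 0.72 ± 0.16 and 1.50 ± 0.19. Hk2, Pgk1, Pkm and Ldha fell, the last by 0.33 on the log2 scale, a call lost without WT young (-0.24), WT old (-0.32) or KO young (-0.31). Hk2 changed most (-4.51 ± 0.40), to 0.16, 0.53, 0.39 and 0.67 CPM, lower in 3 of 4 libraries since WT old stood at 0 before. Over 6342 neuroblast-like cells, 11 cells held an Hk2 UMI.

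Set directly against quiescent NSC-like cells, neuroblast-like cells were lower in 10 of 10 members, where 31.9% of all genes were called higher and 41.7% lower. The levels of all 10 members were lower without overlap between these classes, as were those of 31.4% of all genes tested. The median log2 change was -1.95 over the members and -0.15 over all genes, and the smallest was that of Hk1 (-0.99 ± 0.12, adjusted p = 1.20e-08). Summed over the 10 genes, the level was 8706, 8560, 9103 and 8399 CPM in quiescent cells and 972, 784, 887 and 754 in neuroblast-like cells. Much of that sum was Aldoc and Ldhb; without them it was 1902 to 2045 against 418 to 530.

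Neuron-like cells were higher than neuroblast-like cells in 9 of 10 members, where 35.5% of all genes were called higher and 26.6% lower. Pfkp rose by 3.37 ± 0.18 to 176, 212, 227 and 252 CPM, and Pgk1, Pkm, Ldha, Ldhb and Hk1 rose by 1.64 to 1.90. Hk1 in neuron-like cells, at 112, 114, 104 and 116 CPM, stood above the quiescent, activated, TAP-like and neuroblast-like classes. Pkm, at 610, 567, 652 and 547 CPM, was above quiescent cells in 4 of 4 libraries, but the ranges overlapped. Hk2 did not pass the test (-0.72 ± 1.51): 1 of 642 neuron-like cells held an Hk2 UMI, and the libraries at 0 allow up to 5.32 CPM in WT young, 4.51 in WT old and 2.27 in KO old. Neuroblast-like markers in neuron-like cells summed to 1252 to 2852 CPM, against 12646 to 13316 in the neuroblast-like class itself.

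The other genes of the pathway came from 4 lists with 44 genes, 32 of them tested. Of the 10 other glycolytic enzymes tested (17 listed), 9 fell from quiescent to neuroblast-like cells (41.7% of all genes) and 7 rose from neuroblast-like to neuron-like cells (35.5% of all genes). Tpi1, which follows aldolase, stood at 312 to 338 CPM in quiescent, 28.6 to 43.0 in neuroblast-like and 413 to 539 in neuron-like cells (log2 changes -3.45 ± 0.13 and 3.70 ± 0.13). Eno2, the neuronal enolase, stood at 2.24 to 5.83 CPM in neuroblast-like and 353 to 550 CPM in neuron-like cells (log2 change 6.72 ± 0.14). Gapdh belongs to this list, but 93.5% of the 31-base words of its transcript end occur in other genes, so its counts are uncertain.

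Genes around pyruvate and glucose transport are set against the same shares of all genes, 31.9% called higher and 41.7% lower from quiescent to neuroblast-like cells and 35.5% higher in neuron-like cells. Of 12 tested genes for pyruvate entry into mitochondria (13 listed), 8 fell and 1 rose from quiescent to neuroblast-like cells, and 10 rose in neuron-like cells. Pdk4 and Pdk2, kinases that switch pyruvate dehydrogenase off, stood at 38.3 to 46.1 and 69.7 to 78.6 CPM in quiescent cells and fell in neuroblast-like cells (log2 changes -7.15 and -3.16), Pdk4 to at most 0.52 CPM. Of 6 tested genes for glucose and lactate transport (7 listed), 2 rose, the neuronal glucose transporter Slc2a3 (1.84 ± 0.29) and the monocarboxylate transporter Slc16a7 (1 UMI in quiescent cells, 1.36 to 3.17 CPM in neuroblast-like cells), and 3 fell. Of 4 tested regulators of fructose bisphosphate (7 listed), Tigar rose (1.23 ± 0.29) and 2 fell. With so few genes, the counts for transport and for these regulators lay near the shares of all genes.

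The pairs were also set against each other as the share of 1 gene in the UMIs of both. These shares compare classes for 1 pair only, since capture at the 3′ end can differ between genes, and their intervals cover counting error only. Aldoc made up 84.0 to 84.9% of aldolase UMIs in quiescent NSC-like cells in the 4 libraries, 55.7 to 70.3% in activated, 14.5 to 28.9% in neuroblast-like and 1.18 to 7.57% in neuron-like cells. The order of these classes was thus the same in every library. In TAP-like cells the share was 34.5 to 64.3%, but the highest value, of WT old, rested on 14 UMIs (95% Wilson interval 38.8 to 83.7%). As given above, Aldoc detection in neuroblast-like cells was close to background. Their share rested on 29 Aldoc UMIs in WT old and 53 in KO old. The part of free RNA in that share, and in the log2 ratio that follows, was not tested. In log2 of the ratio, neuroblast-like cells lay below quiescent cells (difference -4.34 ± 0.51, SD, n = 4 libraries, lower in 4 of 4; two-sided exact sign-flip permutation test p = 0.13, adjusted over 4 pairs 0.167, where 0.13 is the smallest p that 4 libraries allow).

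The other pairs parted from this course. Ldhb made up 93.2 to 94.2% of lactate dehydrogenase UMIs in quiescent cells, 75.9 to 84.1% in activated and 84.6 to 88.7% in neuroblast-like cells, so that the share was lowest in between. Its log2 ratio changed by -1.11 ± 0.23 from quiescent to neuroblast-like cells (SD, n = 4, lower in 4 of 4, exact permutation p = 0.13). Hk2 made up 8.33 to 21.1% of the hexokinase pair in quiescent, 62.6 to 65.9% in activated and 0.49 to 2.15% in neuroblast-like cells, a peak in activated cells that held in all 4 libraries. The Hk2 to Hk1 log2 ratio changed by -3.54 ± 0.87 between the ends (SD, n = 4, lower in 4 of 4, exact permutation p = 0.13), but only by -1.81 with cells thinned to 1000 UMIs and by -0.66 with coarser clusters. Pfkp made up 30.1 to 39.7% of its pair in quiescent and 28.9 to 44.9% in neuroblast-like cells, with a log2 difference of 0.07 ± 0.20 that was higher in 2 of 4 libraries (exact permutation p = 0.625), and 66.4 to 71.9% in neuron-like cells.

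**Figure D3:**
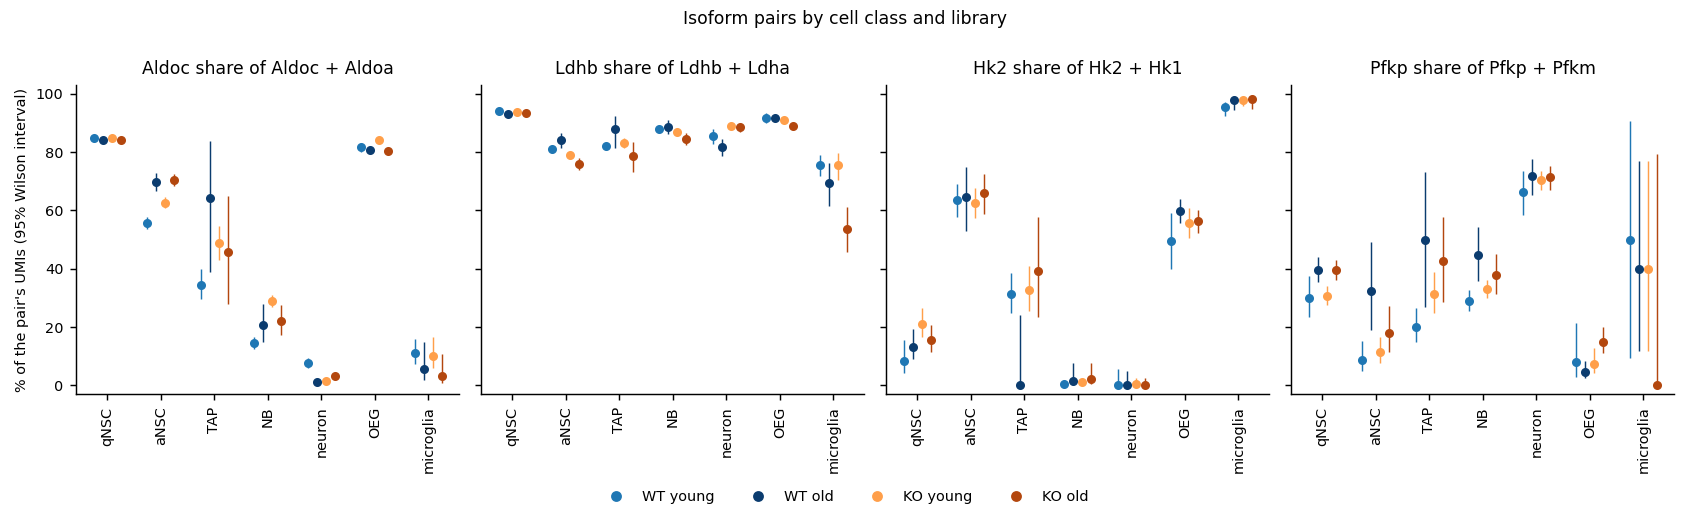
Share of the first gene in the UMIs of each pair (vertical axis, percent, with 95% Wilson intervals for counting error) in 7 cell classes (horizontal axis), 1 point per library. Free RNA was not subtracted. The Aldoc share runs down from 84.0 to 84.9% in qNSC to 1.18 to 7.57% in neurons, the Hk2 share peaks at 62.6 to 65.9% in aNSC within the lineage and at 95.4 to 98.2% in microglia, and wide intervals mark classes with few UMIs.

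Outside the lineage, Hk2 was the gene of microglia-like cells. It stood there at 405, 692, 700 and 636 CPM, above every value of every other class, and 84.2% of 329 cells held a UMI (95% exact interval 79.8 to 88.0%), against 0.16% of 642 neuron-like cells at a median of 6632 UMIs. That interval pools the cells of all libraries and leaves out the spread between libraries and mice. Against quiescent NSC-like cells 2 members were higher and 8 lower, where 27.0% of all genes were called higher and 32.2% lower. The higher ones were Hk2 (5.88 ± 0.16, adjusted p = 3.90e-25) and Ldha (0.70 ± 0.14, adjusted p = 6.57e-05; 187, 180, 161 and 272 CPM). Hk3, the hexokinase of blood cells, followed Hk2 at 43.0 to 88.1 CPM, with no UMI in quiescent cells. The Ldhb share of lactate dehydrogenase was 75.6, 69.3, 75.5 and 53.6%, and its interval in KO old (45.7 to 61.3%) lay below those of the other libraries, though only just below that of WT old (61.5 to 76.2%). These intervals cover counting error only, not the spread between cells, mice or libraries. With 1 library per group, no test was made.

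Olfactory ensheathing glia-like cells, which wrap the axons of the olfactory nerve, had mostly Aldoc among their aldolase UMIs and a high share of Hk2. Aldoc was 80.5 to 84.0% of aldolase UMIs there, below the quiescent share in 4 of 4 libraries, at 1884, 1621, 2041 and 1825 CPM, and Hk2 was 49.5 to 59.8% of the hexokinase pair, at 42.8, 64.3, 46.8 and 50.7 CPM. Against quiescent cells 1 member was higher (Hk2, 2.38 ± 0.17) and 8 lower, where 25.3% of all genes were called higher and 24.0% lower. Pfkp was nearly absent, at 2.57, 2.02, 2.61 and 6.04 CPM (-4.22 ± 0.24), while its near-empty level was 26.3 to 64.4. The lactate transporters Slc16a1 (199 to 211 CPM, 3.06 ± 0.13) and Slc16a7 (50.4 to 73.6 CPM) were higher as well. The Hk1 call (-0.42 ± 0.13) was lost without WT old (-0.38). Within the class, the cluster led by Apod had Hk2 at 64.7 to 92.0 CPM and the cluster led by Vtn at 9.54 to 35.2.

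The other classes were not tested; of these, the endothelial-like, oligodendrocyte-like and OPC-like classes had under 20 cells in some library. RoB astroglia-like cells (49 to 158 per library) came from the same clusters as quiescent NSC-like cells and were set apart only by a RoB hashtag. Likeness between these classes is thus partly by construction. Aldoc stood in the RoB cells at 4269, 4090, 4292 and 4634 CPM, below quiescent vSVZ cells in 4 of 4 libraries. Pfkm stood there at 150 to 163 CPM, the highest of any class. Endothelial-like cells (14 to 43 per library) had the highest Ldha of any class, at 379, 952, 405 and 491 CPM, and Ldhb made up 4.55 to 40.5% of their lactate dehydrogenase UMIs, the lowest shares seen. Their Aldoc differed between libraries, with 45.5 and 34.0 CPM in WT and 339 and 447 in KO, and quiescent markers summed to 788 and 748 CPM against 1305 and 1452 (their part was not tested). Oligodendrocyte-like cells, 0 to 67 per library, had Aldoa at 697 to 723 CPM and Ldha at no more than 14.8.

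Reading each gene's classes in order of their median level, Aldoc ran from quiescent NSC-like through RoB astroglia-like and olfactory ensheathing glia-like cells with no overlap between these neighbours, and below activated cells every pair of neighbours overlapped. Pfkp, Aldoa, Hk1, Pgk1 and Pkm had their highest median in neuron-like cells. Pgk1 overlapped there with RoB astroglia-like cells, and Pkm with quiescent and endothelial-like cells, the latter at 465 to 712 CPM. Ldhb was highest in RoB astroglia-like and quiescent cells, which overlapped. The ratio of the highest to the lowest median over the 7 tested classes was 298 for Aldoc, 84.7 for Pfkp and 73.2 for Aldoa, and 3.32 to 7.16 for Ldha, Pkm, Pgk1, Ldhb and Hk1.

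Over the 28 sums of 7 classes and 4 libraries, the genes outside the lists whose log2(CPM + 5) was most like Aldoc were Gsta4 (Pearson r = 0.98), Id3 and Fam107a, out of 12652 genes. Those most like Hk2 were Tln1 (r = 0.96), Arpc1b and Crybb1, those most like Pfkp were Pcdh1 (r = 0.96), Adgrb3 and Drp2, and those most like Hk1 were Rasgrp2 (r = 0.97), Dlgap1 and Tnik. Aldoa was most like Nacc2 (r = 0.94), Aig1 and Impact, Pfkm like Rnpc3 (r = 0.94), Dtx3 and Dzip1l, and Ldhb like Phyh (r = 0.94), Stk38l and Chchd10. Pgk1 was most like Edf1 (r = 0.92), Fh1 and Sucla2, Pkm like Fh1 (r = 0.92), Higd1a and Mlst8, and Ldha like Cxxc5 (r = 0.87), Secisbp2 and Ptp4a3. Among the members themselves Pgk1 and Pkm were most alike (r = 0.93), and Hk2 ran against Pfkm (r = -0.68). The sums share libraries and depth, so these values only describe.

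Within quiescent NSC-like cells of the vSVZ, 1 cluster was rich in the reporter, with an eYFP UMI in 49.3% of the cluster's cells, and was led by Prss56, Crym, Thbs4 and Id3. Against the other quiescent cells of the same library, 1 member was higher and 6 lower of the 9 tested, where 16.5% of 8586 genes were called higher and 17.7% lower; Hk2 was not tested. Pfkp stood at 8.82, 11.6, 8.12 and 20.9 CPM in this cluster and at 77.8, 95.5, 87.8 and 105 in the other cells (log2 change -3.11 ± 0.20, adjusted p = 7.46e-14). Pfkm stood at 51.8, 64.8, 72.3 and 64.2 against 127, 134, 170 and 154 (-1.36 ± 0.12, adjusted p = 4.06e-11). Neither gene overlapped between the groups of cells. Pfkl, the other phosphofructokinase gene, was lower as well (-0.61 ± 0.16, adjusted p = 0.00338).

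Aldoc was lower as well, at 4106, 3711, 3715 and 3353 CPM against 6135, 5298, 6061 and 5178 (-0.74 ± 0.07), and Aldoa, Pgk1 and Ldhb were lower by 0.26 to 0.43 on the log2 scale. Pkm was the member that rose, to 686, 419, 589 and 481 CPM from 436, 357, 473 and 352 (0.28 ± 0.09, adjusted p = 0.0116, higher in 4 of 4 libraries), a call lost without WT young (0.21). Hk2, given here without a test, stood at 5.51, 13.9, 25.8 and 30.5 CPM against 5.69, 8.44, 7.25 and 5.61, on 5 to 35 UMIs per library in the cluster. With total UMIs as the scale, Aldoa and Ldhb no longer passed. On that scale the median of all genes moved up by 0.15, and the share of calls that were higher was 64.5% in place of 48.3%. Both groups of cells were drawn by clustering these same cells, although without the 10 genes.

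**Figure D4:**
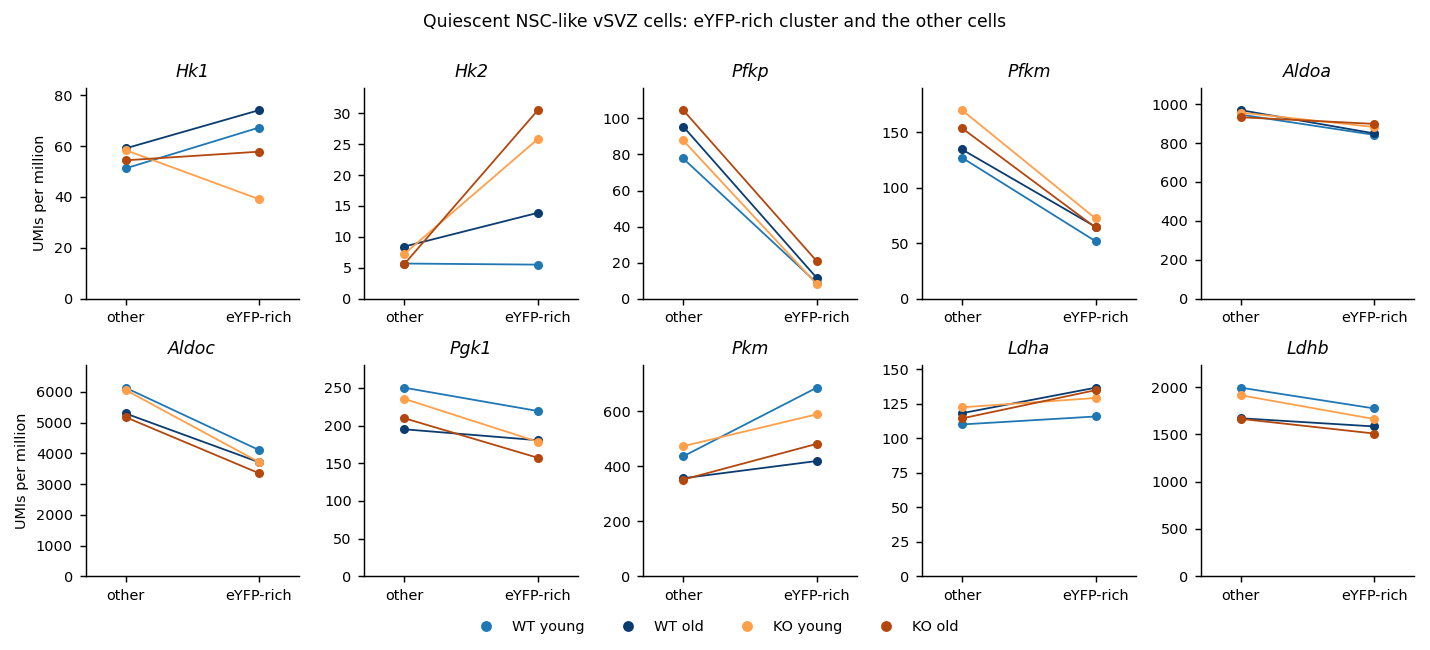
Level of each gene in CPM (vertical axis, from 0, a scale for each gene) in the eYFP-rich cluster and in the other quiescent NSC-like cells of the vSVZ, with a line per library. Pfkp falls to 8.12 to 20.9 and Pfkm to 51.8 to 72.3 in every library, and Pkm is higher in every library.

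Age and genotype were compared over mice, 2 per group, in quiescent NSC-like cells with a vSVZ hashtag (90 to 285 cells per mouse, 10087 genes tested, all 10 members). WT old against WT young gave 2 members higher and 1 lower, where 6.05% of all genes were called higher and 6.67% lower. Pkm stood at 572 and 604 CPM in WT young and at 385 and 361 in WT old mice (log2 change -0.64 ± 0.12, adjusted p = 2.02e-04). Pfkp stood at 47.7 and 27.8 against 43.5 and 94.5 (1.17 ± 0.30, adjusted p = 0.00735), with overlap between the groups. Pfkm stood at 99.7 and 69.9 against 105 and 128 (0.59 ± 0.18, adjusted p = 0.0297), without overlap. Both of these calls were lost without WT old mouse 2 (0.34 and 0.39) and without WT young mouse 2 (0.74 and 0.31).

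In KO mice, old against young gave 1 member lower and none higher, where 1.17% of all genes were called higher and 1.40% lower. It was again Pkm, at 502 and 523 CPM in the young and 417 and 341 in the old mice (-0.42 ± 0.11, adjusted p = 0.0275). Leaving out old mouse 2 (-0.29), young mouse 1 (-0.44) or young mouse 2 (-0.39) ended this call. KO young against WT young gave 1 member higher, Pfkm (141 and 131 against 99.7 and 69.9 CPM, 0.79 ± 0.17, adjusted p = 0.00496; lost without KO young mouse 1, 0.74, or WT young mouse 2, 0.50), where 2.39% of all genes were called higher and 2.16% lower. The age comparison in WT and the genotype comparison in young mice share the WT young mice. KO old against WT old gave no member by edgeR, none at an unadjusted p under 0.05 and none by DESeq2, where 0.0397% of all genes were called higher and 0.0397% lower. The interaction of age and genotype gave none by edgeR or DESeq2 and 1 at an unadjusted p under 0.05 (Pfkm, -0.55 ± 0.23, adjusted p = 0.266), where 0.436% of all genes were called higher and 0.744% lower, so no difference of the age changes between genotypes was shown.

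The share of the eYFP-rich cluster moved with these results. Its cells were 60.0 and 62.0% of quiescent cells in the WT young mice against 30.5 and 13.4% in the WT old mice. For KO the shares were 36.9 and 36.5% (young) against 17.9 and 15.6% (old). Without that cluster no member passed the test in any of these comparisons: in WT the age changes were 0.20 for Pfkp, 0.03 for Pfkm and -0.29 for Pkm (adjusted p = 0.824, 0.972 and 0.368), the genotype change of Pfkm was 0.45 (adjusted p = 0.373), and the age change of Pkm in KO was -0.44 (adjusted p = 0.0739). That KO change was no smaller than over all cells. The WT young mice then held only 36 and 68 cells in place of 90 and 179, with Pfkp on 22 and 19 UMIs. The part of the lower cell numbers in the lost calls was not tested. Pkm then stood at 352 and 479 CPM in WT young mice and at 348 and 359 in WT old mice, and at 451 and 491 (young) against 391 and 319 (old) in KO. The WT young cells also were shallower, with medians of 5088 and 5343 UMIs against 6858 to 7895 in the other mice, and their quiescent markers summed to 11853 and 11575 CPM against 14762 to 18368, none of the 8 at 0. Their neuroblast-like markers summed to 351 and 380 CPM against 112 to 271. The part of depth and of these markers was not tested.

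**Figure D5:**
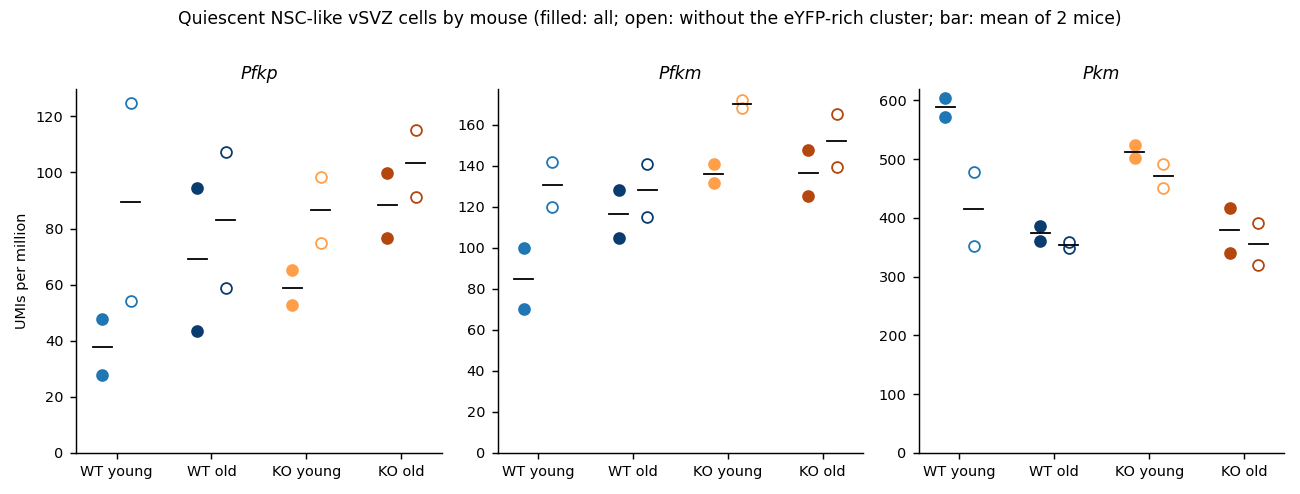
Level of Pfkp, Pfkm and Pkm in CPM (vertical axis, from 0) in quiescent NSC-like vSVZ cells of each mouse, 2 mice per group, with bars at their means; filled points hold all cells and open points those outside the eYFP-rich cluster. In WT young mice Pfkp rises from 47.7 and 27.8 to 125 and 54.1 (on 22 and 19 UMIs) and Pkm drops from 572 and 604 to 352 and 479 once the cluster is left out.

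Of the 4 lists of other genes, none of 26 tested genes passed the edgeR test in any of the 4 age and genotype comparisons in quiescent cells or in the interaction, and DESeq2 also called none. At an unadjusted p under 0.05 there were 5 for age in WT, 3 for age in KO, 4 for genotype among young and 0 among old mice, and 1 for the interaction.

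Microglia-like cells, taken from either tissue, gave 2 mice per group only for genotype in young mice. None of the 6 members tested passed by edgeR or DESeq2 and 1 had an unadjusted p under 0.05, where 0.264% of 4540 genes were called higher and 0.308% lower. That 1 was Hk2, at 451 and 394 CPM in WT young and 692 and 703 in KO young mice (0.71 ± 0.22, adjusted p = 0.141), without overlap. The single WT old and KO old mice with at least 20 such cells had 677 and 591 CPM. Of the other lists, none of 14 tested genes passed by edgeR or DESeq2 and 2 had an unadjusted p under 0.05.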

How the data were processed

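Droplet 3′ expression libraries (10x v3.1) of 4 groups and their 4 hashtag libraries were used; 1 sample, whose labels gave no group, was not. Per the authors' methods, index-hopped reads were removed and the expression matrix was made with kallisto and bustools in a workflow for spliced and unspliced RNA; the sources used here do not give which of these layers the matrix holds. The deposited values are UMI counts per barcode, without a cell filter, in 1 matrix, and the deposited hashtag table holds counts per barcode from CITE-seq-Count. The submitters' processing notes name scanpy 1.6.0, and GRCm38.

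Barcodes entered (18390) if they had 1000 to 20000 UMIs, 100 to 6000 genes and a mitochondrial share under 10%, and 335 predicted doublets were removed with Scrublet in scanpy 1.11.5. Cells were clustered (leidenalg 0.10.2, resolution 1) without the members, the other listed genes, mitochondrial genes and transgenes. Of the cells kept, 4194 had a hashtag call, whose number was read as the mouse. UMIs were summed per library and class (at least 20 cells in each library, quiescent cells only with a vSVZ hashtag) and tested with edgeR 4.0.16 (filterByExpr, TMM, library as a block, 7 classes in 1 quasi-likelihood fit, Benjamini-Hochberg over all genes, adjusted p under 0.05); mice were tested likewise without a block. Changes are relative to the bulk of genes, and SE is the log2 change over the square root of F. With the library as a block, p-values between classes rest on how class differences vary over the 4 libraries, which differ in age and genotype. That spread was estimated from all 7 classes together. CPM used all UMIs of a sum; a count of 0 allows up to 3 counts. Ratios of pairs used UMIs + 0.5. Scripts were tested on simulated data.

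Members and lists were chosen with earlier results of these data known. The named genes are all members, of the other lists up to 3 called genes in each direction with the largest change (not all are printed), and the 3 genes most like each member. Alternatives were DESeq2 1.42.0, no count filter, each library or mouse left out, cells thinned to 1000 UMIs, Leiden resolution 0.5, only the contrast's classes, quiescent cells of any hashtag, a hashtag posterior of at least 0.99, no eYFP-rich cluster and, chosen after seeing the data, no TMM factors. Promoters came from RefSeq (GRCm38.p6; 10 of 10 members matched).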

Additional observations from a re-analysis of the deposited data

Results flagged for a closer look

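Among 70 groups of 4 libraries (10 genes in 7 classes), the value of 1 library stood apart from the other 3 in 2, and chance flags about 1 in 20 groups. Hk2 in neuron-like cells was 0.465 CPM in KO young, from 1 UMI, and 0 in the other libraries. Pfkp in olfactory ensheathing glia-like cells was 6.04 CPM in KO old against 2.02 to 2.61 in the others. No member passed the edgeR test of the interaction of age and genotype.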

How the results depend on the processing

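No pairing of mice between groups was possible because a hashtag number recurs between groups for mice that are not the same. Class comparisons already took the library as a block. The eYFP-rich cluster was compared within libraries and not within mice, although its cells had a mouse call. Of the members' class changes under the alternatives, 763 kept their direction and side of the threshold, 25 lost the call, 10 gained it and 12 turned sign; of their called mouse changes, 22 kept the call and 23 lost it. The sign turned for changes that had not passed the test: Pkm in activated against quiescent cells (-0.26) was 0.093 without TMM factors and 0.16 at resolution 0.5; Pgk1 in TAP-like against activated cells (-0.10) was 0.0084 without KO old (-0.12 to 0.0084 with a library left out), 0.021 with thinned cells and 0.021 at resolution 0.5; Aldoc in neuroblast-like against TAP-like cells (0.04) was -0.019 without KO young (to 0.12 without another library) and -1.07 at resolution 0.5 (past the threshold there); Hk1 in the eYFP-rich cluster (-0.16) was 0.14 without KO young (from -0.27 without another library) and 0.38 with thinned cells; Ldha there (0.01) was -0.035 with no count filter, -0.026 without WT old and -0.029 without KO old (to 0.068 without another library). The Pfkp to Pfkm log2 difference (0.07) was -0.13 with quiescent cells of any hashtag, -0.24 at resolution 0.5 and -0.0046 without WT old (to 0.13 without another library). The cause of these turns was not tested. Members called in the eYFP-rich cluster were 3 with thinned cells. For age in WT, 1 member was called by DESeq2, 1 with thinned cells, 0 without the eYFP-rich cluster and 1 to 3 with a mouse left out. For age in KO, these were 0, 0, 0 and 0 to 1, with 2 without a count filter and 0 at the stricter hashtag posterior. For genotype in young mice, 2 were called without a count filter, 0 at the stricter posterior, 0 without the eYFP-rich cluster and 0 to 1 with a mouse left out. With a mouse left out, a group's lone mouse was assumed to vary like the others. Low counts limit Hk2 in neuroblast-like and neuron-like cells and every gene in TAP-like cells of WT old. Contrasts of endothelial-like and oligodendrocyte-like cells were not made, since some library had under 20 cells, nor were other comparisons in microglia-like cells, which lacked 2 mice.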
